A study of Mus musculus with 12 samples.

Results

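The comparison described here set mouse embryonic fibroblasts that carried a short hairpin against Trim28 beside fibroblasts that carried that hairpin and a second one against Setdb1. It was chosen by the names of the count columns, and it takes 6 of the 12 libraries of the series, 3 per group, with all 14520 tested genes. All cells were of strain C57BL/6 and held FUW-OSKM and FUW-M2rtTA, lentiviral constructs that express the factors Sox2, Klf4, Myc and Oct4 (whose gene symbol is Pou5f1) when doxycycline is given. Both groups compared were induced with doxycycline for 7 days. The other 6 libraries, used as reference levels, came from cells with a scrambled hairpin, 3 induced with doxycycline in the same way and 3 kept without it. All cells were grown in embryonic stem cell medium on irradiated feeder fibroblasts, and the labels do not say whether feeders were removed before RNA was taken. Each gene was targeted by 1 hairpin, the Setdb1 hairpin was not used without the Trim28 hairpin in these libraries, and the labels name no control hairpin in the Trim28 group that would match the second one. The labels do not say that replicates came from separate cultures, so the p-values rest on the spread among the 12 libraries alone, and that spread may be technical. In bulk RNA, fewer cells of a type and less RNA per cell cannot be told apart.

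Trim28, also called KAP1, is a corepressor that many zinc finger proteins bring to DNA through their KRAB domain. Setdb1 is a methyltransferase of histone H3 lysine 9 that Trim28 recruits, and Atf7ip is the partner that keeps Setdb1 stable in the nucleus. Together they silence transposable elements, imprinted alleles and some germline genes in embryonic cells. During reprogramming by the 4 factors, fibroblasts lose mesenchymal transcripts and gain epithelial ones before a few reach pluripotency.

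The 6 libraries held 15469056 to 18427147 counted reads, the double-hairpin group being the deeper one (17041227 to 18427147 against 15469056 to 16656953). Levels are given as CPM, counts per 1000000 counted reads after TMM scaling of library sizes. On the first principal component of log2 CPM, which held 78.91% of the variance over 12 libraries, uninduced cells lay at 116.6 to 119.5, induced controls at -49.25 to -35.17 and the Trim28-hairpin libraries at -52.45 to -45.36. The double-hairpin libraries lay nearer to the uninduced ones, at -16.16 for replicate 1, -29.89 for replicate 2 and -29.55 for replicate 3. Replicate 1 of the double-hairpin group stood apart on this component, and values without it are given below where they differ. Within each of the 2 groups, replicate counts spread beyond sampling noise, with chi-square values of 1.95 to 5.60 for each degree of freedom, and mitochondrial transcripts took 1.78% to 1.96% of reads. Pairs of double-hairpin replicates had similar values, from 5.057 to 5.599. Over all 12 libraries, whose spread the test used together, the chi-square values ran from 1.903 to 17.52. All fibroblast markers fixed for the label check (Thy1, Pdgfra, Col1a1, Col1a2 and Col3a1) were present in every group, with Col1a1 at 5141 ± 301 CPM (mean ± SD, n = 3) with the Trim28 hairpin and 7220 ± 632 CPM with both.

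The hairpin targets were read first. Setdb1 (ENSMUSG00000015697, chromosome 3, 95323525 to 95357202) stood at 124, 122 and 121 CPM in Trim28-hairpin replicates 1, 2 and 3, and at 65.2, 70.1 and 54 CPM with both hairpins. The groups did not overlap (log2 change -0.95, SE 0.085, 3 libraries each, adjusted p = 2.53e-06 by edgeR's quasi-likelihood test). Against the induced controls, at 81.2 ± 4.27 CPM, Setdb1 in the double-hairpin cells had a log2 change of -0.36 (SE 0.086, edgeR adjusted p = 0.00363), and in the Trim28-hairpin cells one of 0.59 (SE 0.085, edgeR adjusted p = 8.24e-05). Trim28 (ENSMUSG00000005566, chromosome 7, 13024152 to 13031035) stood at 64.1, 52.2 and 59.1 CPM with its hairpin alone and at 106, 95.6 and 107 CPM with both, against 328 ± 38.3 CPM in the induced controls. Every double-hairpin library was above every Trim28-hairpin library (log2 change 0.82, SE 0.10, edgeR adjusted p = 4.3e-05). The 2 groups thus differed in both targets, and the parts of the 2 in the differences below cannot be told apart. Positions are those of the deposited table, which names no genome build.

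All 4 reprogramming factors fell when the Setdb1 hairpin was added. Pou5f1 stood at 536, 613 and 583 CPM with the Trim28 hairpin and at 292, 418 and 391 CPM with both (log2 change -0.65, SE 0.11, n = 3 per group, edgeR adjusted p = 0.00062). Sox2 stood at 171, 204 and 199 CPM and then at 90.2, 129.9 and 114 CPM, a log2 change of -0.78 (SE 0.17, edgeR adjusted p = 0.0044). The groups did not overlap for either gene, and replicate 1 of the double-hairpin group was the lowest library for both. Klf4 and Myc went the same way, with log2 changes of -0.62 and -0.53 (SE 0.10 and 0.11), and again replicate 1 of the double-hairpin group was the lowest. Each of the 4 kept the call when any 1 of the 6 libraries was left out. Reads from the vectors and from the cells' own genes are summed in these counts. What part the factor levels have in the changes below was not tested.

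**Figure D1:**
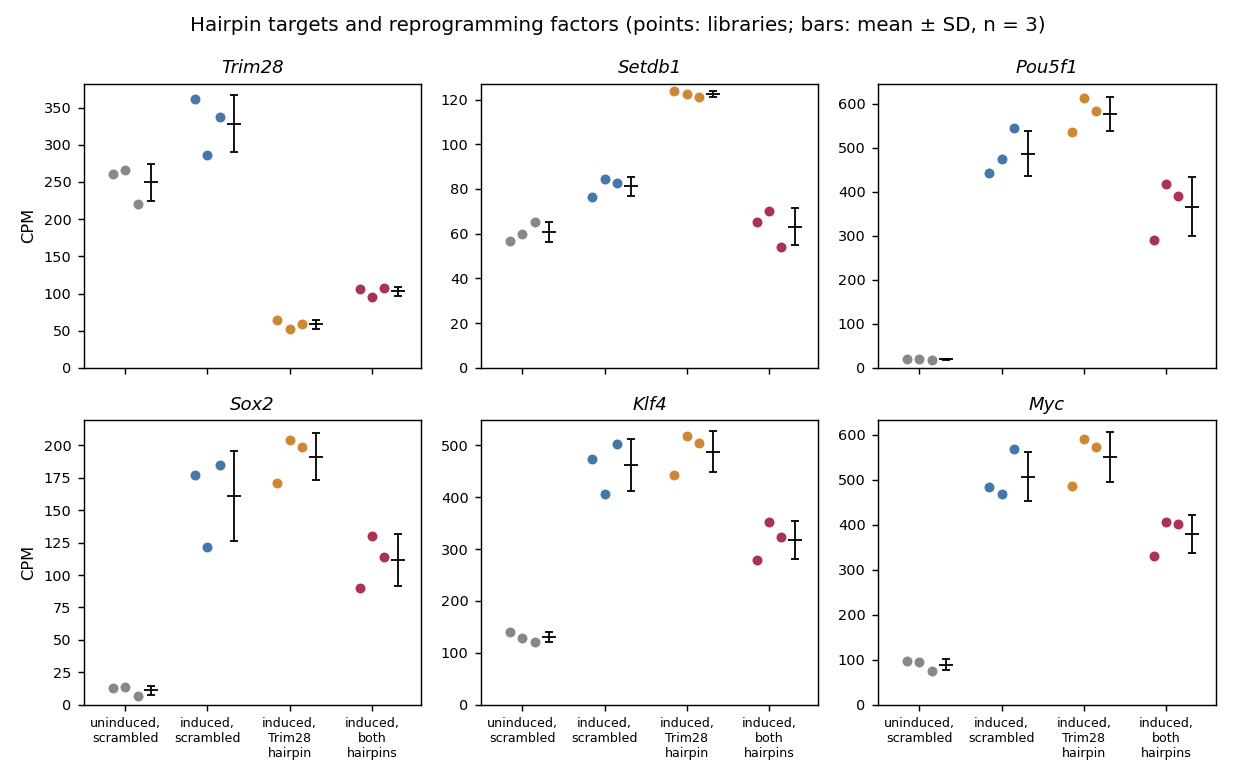
Normalised counts (CPM, y axes from 0) of Trim28, Setdb1, Pou5f1, Sox2, Klf4 and Myc in the 12 libraries by group; points are libraries and the bars give the mean ± SD (n = 3). Setdb1 is lower and Trim28 higher in the double-hairpin libraries than in the Trim28-hairpin libraries, and all 4 factors are lower there.

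Of 14520 genes tested, 3154 (21.72%) passed the edgeR test at an adjusted p under 0.05, the threshold for "rose" and "fell" throughout. Of these, 1452 rose (10% of tested genes) and 1702 fell (11.7%). These 2 shares are the background for the counts of each gene list below. At least 2-fold changes were fewer, with 133 genes that rose (0.916%) and 239 that fell (1.65%). Without regard to the test, 3447 genes (23.7%) had all 3 double-hairpin libraries above all 3 Trim28-hairpin libraries and 3361 (23.1%) had them below. Leaving out any 1 of the 6 libraries, which leaves 2 in its group, lowered both counts, to 772 to 1262 that rose and 1028 to 1581 that fell. The part of the smaller group in these drops, here and in the lists below, was not tested. The lowest counts follow. Without Trim28-hairpin replicate 2, 772 rose and 1057 fell, without Trim28-hairpin replicate 3, 893 rose and 1170 fell, and without double-hairpin replicate 1, 825 rose and 1028 fell. The median log2 change over all tested genes was 0.004.

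**Figure D2:**
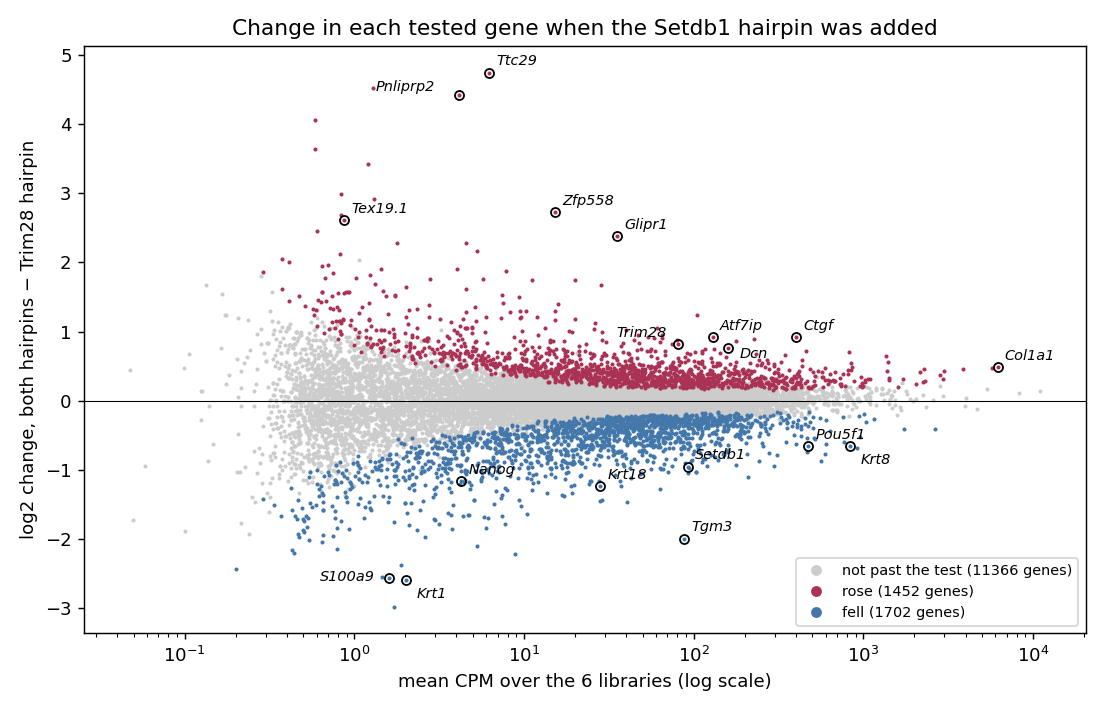
Log2 change (both hairpins minus the Trim28 hairpin, y axis) against mean CPM over the 6 libraries (x axis, log scale) for 14520 tested genes, coloured by whether they rose (1452), fell (1702) or did not pass the test (11366). Large rises lie mostly at low CPM, while Tgm3 and Glipr1 changed by more than 2-fold at higher levels.

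The largest rises ended at a low or moderate level, and some of these genes began near silence. The rule for naming them required a mean of 1 CPM or more in the group with the higher level, and left out clone names, predicted genes and pseudogenes. Ttc29, a gene of the sperm flagellum, stood at 0.762, 0.177 and 0.409 CPM with the Trim28 hairpin and at 12.2, 13.8 and 10.1 CPM with both, a log2 change of 4.74 (SE 0.29, n = 3 per group, edgeR adjusted p = 4.9e-07). Pnliprp2, a lipase of the pancreatic lipase family, went from 0.127, 0.532 and 0.409 CPM to 6.83, 8.35 and 8.47 CPM (log2 change 4.42, SE 0.32). Every double-hairpin library lay above every Trim28-hairpin library for both genes. Glipr1, a secreted CAP-domain protein, rose from 11.6, 11.7 and 10.9 CPM to 60.8, 51 and 66 CPM (log2 change 2.38, SE 0.12, edgeR adjusted p = 1.01e-08). Zfp558, a zinc finger gene, rose from 4.13, 4.08 and 3.79 CPM to 24, 30.1 and 25.2 CPM (log2 change 2.73, SE 0.14, edgeR adjusted p = 1.01e-08). These were the 2 of the 12 largest rises that exceeded 20 CPM in every double-hairpin library.

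The other 8 were low in absolute level. Tsga8, a testis-specific gene, rose by a log2 change of 4.52 to 2.47 ± 0.181 CPM. Slc44a5, a choline-transporter-like gene, rose by 3.42 to 2.22 ± 0.143 CPM, and Akr1c21, an aldo-keto reductase gene whose family has close copies, by 2.99 to 1.5 ± 0.405 CPM. Tex19.1, a germline gene that somatic cells keep methylated and silent, rose by 2.60 to 1.51 ± 0.47 CPM. Gbp4, an interferon-inducible GTPase, rose by 2.28, Pou4f2, a POU factor of retinal ganglion cells, by 2.17, Adcyap1r1, a neuropeptide receptor, by 2.12, and Zfp804a by 1.97. For all 12 the libraries of the groups did not overlap, as the naming rule required. Leaving out any 1 of the 6 libraries did not end the call of any of them.

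The 12 risers had different levels in the induced controls, which are given side by side here without a test because the comparisons share libraries. Ttc29 and Pou4f2 stood at 7.53 ± 1.37 and 14.9 ± 2.34 CPM in induced controls, at 0.449 ± 0.294 and 1.91 ± 0.811 CPM with the Trim28 hairpin, and at 12 ± 1.87 and 8.6 ± 1.71 CPM with both. Tsga8 stood at 2.57 ± 0.499, 0.101 ± 0.0366 and 2.47 ± 0.181 CPM. These 3 genes were present in induced controls, low with the Trim28 hairpin and present again with both, and had no read in uninduced cells. Pnliprp2, Zfp558 and Glipr1 were lower in both other induced groups than with both hairpins, at 0.174 ± 0.121, 2.4 ± 0.733 and 2.87 ± 0.655 CPM in the controls. Glipr1 already stood higher with the Trim28 hairpin, at the levels given above, than in the controls. Akr1c21 had no read in any of the 6 scrambled-hairpin libraries.

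**Figure D3:**
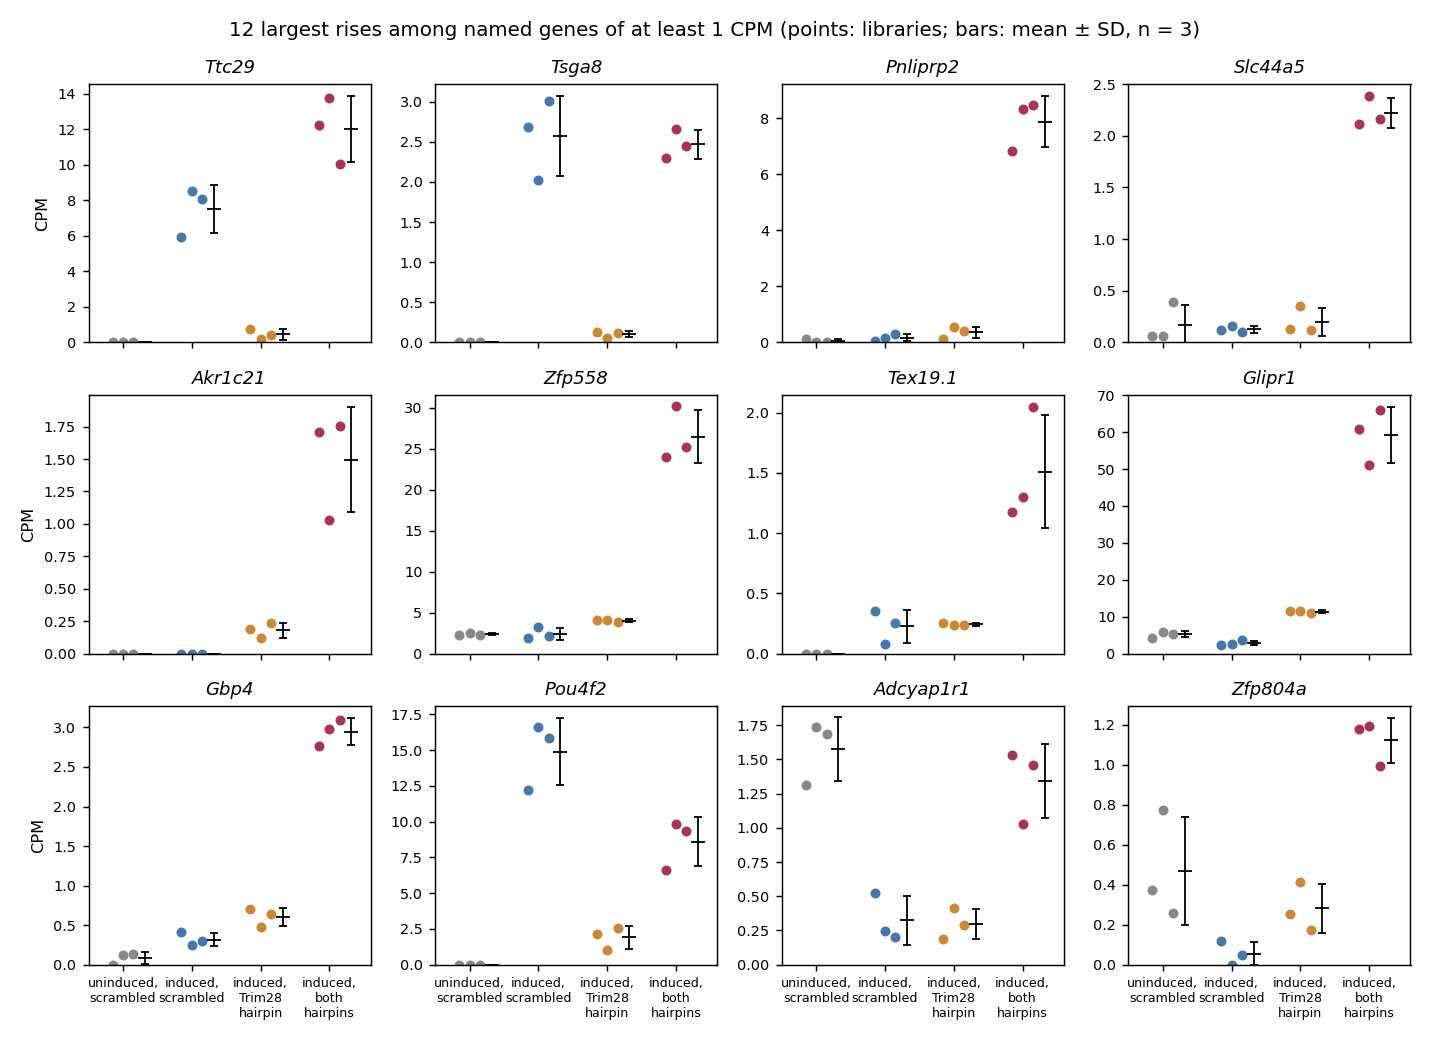
CPM (y axes from 0, own scale per gene) in the 12 libraries for the 12 named genes with the largest rise; points are libraries and the bars give the mean ± SD (n = 3). Ttc29, Tsga8 and Pou4f2 are also present in the induced controls, while the other 9 have their highest mean with both hairpins, except Adcyap1r1, which is higher in uninduced cells.

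Among genes of at least 50 CPM over the 6 libraries, clone names, predicted genes and pseudogenes again left out, the 6 largest rises were close to 2-fold. The clone-named 2810474O19Rik, described with the partners of the targets, rose more (1.24). Ctgf, a matricellular growth factor gene and a target of TGF-beta and YAP, went from 292, 276 and 263 CPM to 534, 486 and 548 CPM (log2 change 0.92, SE 0.07, edgeR adjusted p = 5.05e-07). Atf7ip, the Setdb1 partner, went from 85.1, 90.3 and 93.8 CPM to 163, 184 and 162 CPM (log2 change 0.92, SE 0.071, edgeR adjusted p = 5.05e-07). The groups did not overlap for either, as the naming rule required. Mme, a membrane endopeptidase gene, Htra1, a secreted serine protease gene, Ereg, an EGF-receptor ligand gene, and Tnfrsf23, a decoy receptor gene, rose by 1.05, 0.95, 0.92 and 0.91.

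The largest falls included genes of the outer epidermis and of inflammation. Tgm3, a transglutaminase of the cornified envelope, stood at 118, 151 and 151 CPM with the Trim28 hairpin and at 34, 32.6 and 38.6 CPM with both (log2 change -1.99, SE 0.10, edgeR adjusted p = 1e-08). Krt1, a keratin of suprabasal epidermis, stood at 2.67, 3.84 and 3.85 CPM and then at 0.471, 0.434 and 0.818 CPM (log2 change -2.58, SE 0.27). Among the 12 largest falls, Tgm3 was the only gene above 10 CPM. S100a9, a calcium-binding protein of inflamed tissue, fell from 2.73 ± 0.0683 to 0.463 ± 0.222 CPM, Saa1, an acute-phase gene, from 8.6 ± 1.04 to 2 ± 0.567 CPM, and Gsdmc2, a gasdermin gene, from 5.87 ± 0.361 to 1.6 ± 0.442 CPM. In induced controls these 3 stood at 0.0799 ± 0.0208, 2.81 ± 0.694 and 0.262 ± 0.0266 CPM, and uninduced cells had no read of any of them. The Trim28-hairpin group held the highest mean of each among the 4 groups. Saa1 and Gsdmc2 have near copies next to them, and how the authors' counting split reads among these is not stated.

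Nos3, endothelial nitric oxide synthase, fell by a log2 change of 2.55, Hemgn, a blood cell gene, by 2.14, Mylk4, a kinase gene, by 2.04, Ryr3, a calcium release channel gene, by 1.98, and Syt2, a synaptotagmin gene, by 1.87. Trh, the thyrotropin-releasing hormone gene, had 1.46, 6.38 and 1.64 CPM with the Trim28 hairpin and 0.471, 0.596 and 0.76 CPM with both. Its change of -2.37 rested on Trim28-hairpin replicate 2, without which it was -1.34 (edgeR adjusted p = 0.1058). Il5, a cytokine gene, lost its call without Trim28-hairpin replicate 2 (edgeR adjusted p = 0.1177), double-hairpin replicate 1 (0.08857) or double-hairpin replicate 3 (0.08147). Among genes of at least 50 CPM, the 6 largest falls were Tgm3, the hard keratin gene Krt84 (-1.28), the nuclear envelope gene Syne2 (-1.10), the inner ear gene Otog (-1.05), the zinc finger gene Zfp141 (-1.03) and the neurofilament gene Nefl (-1.03).

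The change was set against what induction itself did, measured between the 6 scrambled-hairpin libraries, none of which is in the comparison. Of 2061 genes that rose at least 2-fold with induction, 935 (45.37%) fell when the Setdb1 hairpin was added and 46 (2.232%) rose, with a median log2 change of -0.455. Of 1043 genes that fell at least 2-fold with induction, 323 (30.97%) rose and 7 (0.6711%) fell, with a median of 0.305. Among the 11416 other genes, 1083 (9.487%) rose and 760 (6.657%) fell, with a median of 0.024. The 523 genes that induction raised at least 32-fold held 293 that fell (56.02%) and 17 that rose (3.25%), with a median of -0.699. Genes gained with induction were thus more often lower with both hairpins, and genes lost with induction more often higher, than the 11.7% and 10% of all tested genes. Among the 46 against this direction were Ttc29, Pou4f2, Tsga8 and Alpl. With any 1 of the 6 libraries left out, 30.26% to 40.47% of the first class fell and 17.83% to 25.77% of the second rose, both lowest without double-hairpin replicate 1. The share of the second class that rose was 18.22% without Trim28-hairpin replicate 2.

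**Figure D4:**
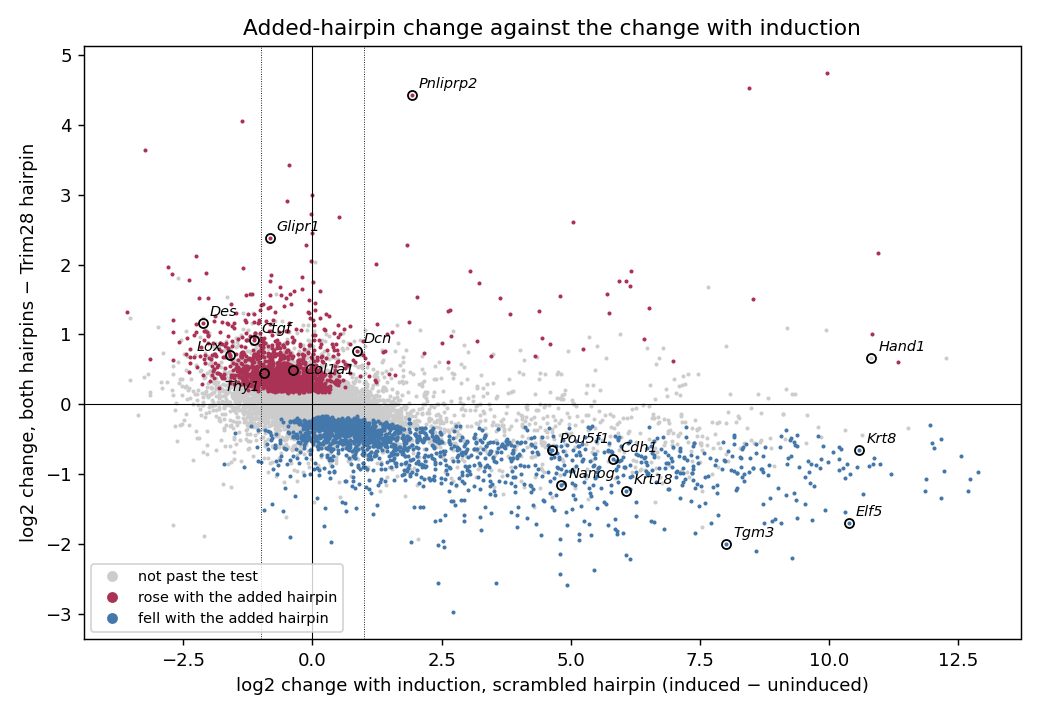
Log2 change with both hairpins against the Trim28 hairpin (y axis) plotted against the log2 change with induction in scrambled-hairpin cells (x axis) for 14520 genes; dotted lines mark 2-fold. Blue points to the right (935 genes past the dotted line fell) include Krt8, Krt18 and Cdh1, and red points to the left (323 rose) include Lox, Ctgf and Des.

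Epithelial transcripts fell as a group. Of 38 epithelial genes tested, 33 fell, 0 rose and 5 did not pass, and the median log2 change was -0.741. Krt18, a simple-epithelium keratin, stood at 40.1, 39 and 39 CPM with the Trim28 hairpin and at 14.8, 18 and 17.2 CPM with both (log2 change -1.24, SE 0.13, edgeR adjusted p = 9.11e-06). Grhl2, a transcription factor of epithelial junction genes, stood at 15.9, 14.8 and 17.1 CPM and then at 5.41, 6.83 and 7.19 CPM (log2 change -1.30, SE 0.14). The groups were apart for both, and double-hairpin replicate 1 was the lowest library. Cldn4, a tight-junction claudin gene, fell by 0.94, and the adherens cadherin gene Cdh1 by 0.78 from 390 ± 20.6 to 226 ± 32.8 CPM. The summed level of the list was 4053 to 4520 CPM with the Trim28 hairpin and 2412 to 2984 CPM with both, against 235.1 to 258.5 CPM in uninduced cells. Epithelial transcripts thus remained well above the uninduced level. Without double-hairpin replicate 1, 26 fell, the fewest of any single omission.

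Keratins and keratinocyte genes of stratified epithelium moved likewise, with 18 of 23 that fell, 0 that rose and a median of -0.681. Krt16, a keratin of activated epidermis, had 219.9, 241 and 238 CPM and then 113, 119.8 and 133 CPM (log2 change -0.93, SE 0.073, edgeR adjusted p = 6.54e-07). Krt6a, which has near copies, and Krt13, a keratin of mucosal epithelium, fell by 0.99 and 0.91. In this list 12 members fell without Trim28-hairpin replicate 2 and 12 without double-hairpin replicate 1.

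Fibroblast and mesenchymal transcripts rose. Of 41 tested, 24 rose, 0 fell and 17 did not pass, with a median of 0.357. Dcn, the proteoglycan decorin, stood at 124, 110.1 and 122 CPM and then at 200.4, 214 and 191 CPM (log2 change 0.77, SE 0.075, edgeR adjusted p = 5.43e-06). Lox, a collagen cross-linking enzyme, stood at 654, 583 and 634 CPM and then at 1029, 1072 and 957 CPM (log2 change 0.71, SE 0.074). Both genes separated the groups fully. Loxl2, a relative of Lox, and Ccdc80, a matrix protein gene, rose by 0.51 and 0.44. The list summed to 42660 to 45980 CPM with the Trim28 hairpin, 53340 to 58640 CPM with both and 78520 to 85900 CPM in uninduced cells. Induced controls, at 43850 to 55970 CPM, overlapped both of the groups compared. With Dcn at 128 ± 12.7 CPM in uninduced cells and 232 ± 0.966 CPM in induced controls, this member did not follow the list's order across groups. Feeder fibroblasts would add to this list, and their part in it was not tested. Without double-hairpin replicate 1, 17 rose, and without Trim28-hairpin replicate 2 or 3, 18 rose.

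Contractile genes rose too, 11 of 15, with 0 that fell and a median of 0.464. Acta2, smooth-muscle actin, stood at 1149, 1077 and 974 CPM and then at 1798, 1448 and 1741 CPM (log2 change 0.64, SE 0.10, edgeR adjusted p = 0.000347). Actg2, a gut smooth-muscle actin, rose by 0.96, Tpm2, a tropomyosin, by 0.55, and Des, the intermediate filament desmin, by 1.16 from 3.19 ± 0.607 to 7.18 ± 1.07 CPM. Whichever of the 6 libraries was left out, 10 or 11 rose. Of 24 secreted cytokine and protease genes, 13 rose and 0 fell (median 0.406), among them Vegfa, the angiogenic growth factor (0.55), Igfbp7, an insulin-like growth factor binding protein (0.63), and Csf1, the macrophage growth factor (0.45).

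The 38 collagen chains were mixed, with 11 that rose, 2 that fell and a median of 0.125. The list summed to 19670 to 22290 CPM with the Trim28 hairpin and 24760 to 28550 CPM with both. The latter lay within the 23210 to 32320 CPM of induced controls. Col5a2, a chain of fibrillar collagen, rose by 0.41 from 1847 ± 129 to 2460 ± 122 CPM, and Col5a3 and Col16a1 by 0.62 and 0.50. Col6a4 rose most, by 1.90, to 2.27 ± 0.576 CPM. The 2 that fell were Col17a1, the collagen of the epithelial hemidesmosome (-1.36), and Col14a1 (-0.82). Without Trim28-hairpin replicate 2 or double-hairpin replicate 1, 7 collagen chains rose. Of 19 TGF-beta response genes, 9 rose and 1 fell, with a median of 0.209. The count fell to 2 without Trim28-hairpin replicate 2, Trim28-hairpin replicate 3 or double-hairpin replicate 1, and to 5 without double-hairpin replicate 3. Ctgf kept its call throughout. Tgfb1, the ligand, rose by 0.49 (18.5, 18.9 and 20.3 CPM against 27.8, 26.2 and 27.2 CPM, edgeR adjusted p = 0.00583), while Skil, a repressor of the pathway, fell by 0.36, a call lost without any of those 4 libraries. The Hox list, genes of position along the body, held 3 that rose (Hoxb9, Hoxc8 and Hoxb8) and Hoxa9 that fell (-0.74), of 34 tested. Its shares, 8.824% that rose and 2.941% that fell, were below the 10% and 11.7% of all tested genes. Hoxb8 lost its call without Trim28-hairpin replicate 3 or double-hairpin replicate 1 (edgeR adjusted p = 0.06189 and 0.06447).

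**Figure D5:**
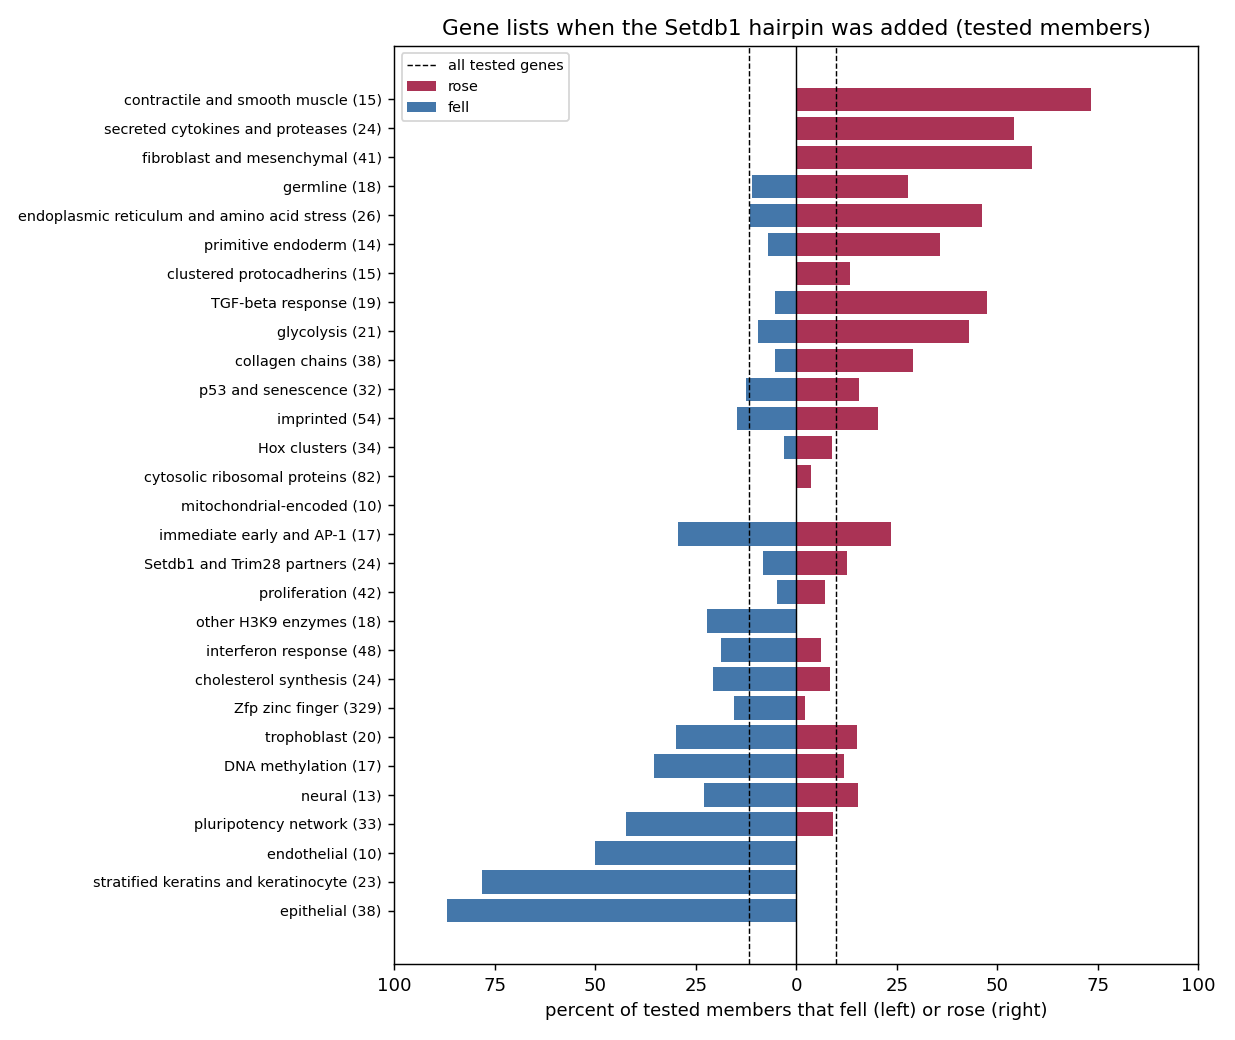
Percent of tested members of each gene list that fell (left) or rose (right) with both hairpins against the Trim28 hairpin, for lists of at least 10 tested members (number in brackets); dashed lines give all tested genes (10% rose, 11.72% fell). Epithelial and keratinocyte lists lie far left, contractile and fibroblast lists far right.

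Pluripotency network genes fell more often than they rose, 14 against 3 of 33 tested, with a median of -0.453. Tet2 and Cdh1, described with other lists, are also members. Nr5a2, a nuclear receptor that can stand in for Oct4, stood at 6.98, 7.8 and 7.53 CPM and then at 2.12, 2.82 and 3.33 CPM (log2 change -1.43, SE 0.18, edgeR adjusted p = 7.94e-05). Tdh, threonine dehydrogenase of embryonic stem cells, stood at 27.8, 31.2 and 32.1 CPM and then at 13.8, 17.4 and 15.7 CPM (log2 change -0.96, SE 0.11). Neither gene's groups overlapped. From the markers used for the label check, Nanog, a core pluripotency factor, fell from 5.89 ± 1.49 to 2.63 ± 0.823 CPM (log2 change -1.16, edgeR adjusted p = 0.00523), while Esrrb and Dppa5a had log2 changes of -0.41 and 0.66 that did not pass (edgeR adjusted p = 0.326 and 0.123). Alpl, alkaline phosphatase, rose from 10.2, 11.3 and 10.2 CPM to 18.3, 21.2 and 18.2 CPM (log2 change 0.87, edgeR adjusted p = 0.000159), and stood at 21.3 ± 1.95 CPM in induced controls. Zfp42, the stem cell marker Rex1, rose by 1.51 with groups that overlapped (0.635, 0.71 and 1.34 against 1.18, 3.41 and 3.1 CPM). Its call was lost in 4 of the 6 single omissions, those of Trim28-hairpin replicates 1 and 2 and double-hairpin replicates 2 and 3 (edgeR adjusted p = 0.06191, 0.0741, 0.06637 and 0.06187). Without Trim28-hairpin replicate 2, 1 network gene rose, and without a low-count filter 5 did. The whole list summed to 1079 to 1163 CPM with the Trim28 hairpin and 633.1 to 807.1 CPM with both.

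Among partners of the 2 targets, 3 of 24 (12.5%) rose, 2 (8.333%) fell and 19 did not pass. These shares were near the 10% and 11.7% of all tested genes. The gene listed as 2810474O19Rik, whose current symbol is Resf1 and whose product binds Setdb1, stood at 64.8, 61.3 and 60.0 CPM and then at 139, 160.1 and 139.5 CPM (log2 change 1.24, SE 0.095, edgeR adjusted p = 5.05e-07). With Atf7ip, described above, 2 proteins that work directly with Setdb1 had higher transcript levels with both hairpins. Both were named for their small p, and a link to the lower Setdb1 transcript was not tested. Atf7ip2 and Mphosph8, also listed partners, had log2 changes of 0.30 and -0.21 that did not pass (edgeR adjusted p = 0.13 and 0.227). Hdac1 and Chd4, subunits of the NuRD deacetylase complex, fell by 0.20 and 0.17. Hdac1 lost its call without any 1 library (edgeR adjusted p from 0.05954 to 0.1421), and Chd4 without any 1 except double-hairpin replicate 2 (0.085 to 0.1557). A fit of only the 6 libraries compared called more partners, 5 that rose and 8 that fell, while 4 fell with scaling by total counts and 1 without a low-count filter.

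Of 18 other enzymes and readers of histone H3 lysine 9 methylation, 4 fell, 0 rose and 14 did not pass. Kdm3b, Kdm3a and Jmjd1c, demethylases of one family, and the methyltransferase gene Prdm2 fell by 0.29, 0.35, 0.30 and 0.24. Without double-hairpin replicate 1, 1 fell, and without Trim28-hairpin replicate 2 or 3 or double-hairpin replicate 3, 2 fell. In the DNA methylation list 6 of 17 fell and 2 rose. Tet2, which oxidises methylcytosine, stood at 137, 154 and 146 CPM and then at 73.1, 94.1 and 78.1 CPM (log2 change -0.84, SE 0.095, edgeR adjusted p = 2.06e-05). Dnmt3b, a de novo methyltransferase, fell by 0.89 from 14.3 ± 1.54 to 7.68 ± 2.27 CPM, Tet3 by 0.40, and Zfp57, the zinc finger protein that brings Trim28 to imprinted regions, by 0.58. Mbd1 and Mbd3, methyl-CpG-binding family genes, rose by 0.26 and 0.34, and both lost the call without Trim28-hairpin replicate 2 or 3 or double-hairpin replicate 1, which left 0 that rose. Of the pair, 1 was called without Trim28-hairpin replicate 1, without double-hairpin replicate 3 or without a low-count filter.

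The zinc finger genes named Zfp, some of which encode KRAB proteins that bind Trim28, numbered 329 tested. Of these 51 (15.5%) fell, 7 (2.128%) rose and 271 did not pass, with a median of -0.146. Over all tested genes 11.72% fell and 10% rose, so rises were fewer here than falls were more. The 51 that fell had log2 changes from -1.413 to -0.232, with a median of -0.521, while 4 of the 7 that rose did so by more than 2-fold. Zfp37 stood at 8.25, 8.93 and 9.22 CPM and then at 23.4, 22.4 and 23.6 CPM (log2 change 1.39, SE 0.13, edgeR adjusted p = 2.73e-06). With Zfp558, Zfp804a and Zfp42 it made up the 4 large rises, and the other 3 were Zfp940, Zfp639 and Zfp9, named here after their values were seen. Zfp704 and Zfp296 fell by 0.66 and 0.70. The number that fell dropped to 28, 29, 29 and 27 without Trim28-hairpin replicate 2, Trim28-hairpin replicate 3, double-hairpin replicate 1 or double-hairpin replicate 3. Over all tested genes it dropped from 1702 to 1057, 1170, 1028 and 1226 in the same order. With only the 6 libraries compared, 83 Zfp genes fell and 16 rose, and without a low-count filter 11 Zfp genes rose. Counts of zinc finger genes with close copies are uncertain.

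Of 54 imprinted genes, 11 (20.37%) rose and 8 (14.81%) fell, with a median of 0.106, against 10% and 11.7% of all tested genes. Nnat, a paternally expressed membrane protein gene, stood at 10.1, 7.92 and 10.3 CPM and then at 22.9, 18.9 and 21.8 CPM (log2 change 1.16, SE 0.16, edgeR adjusted p = 9.68e-05). Rtl1, a retrotransposon-derived gene of the Dlk1-Dio3 region, stood at 45.9, 58.1 and 48.3 CPM and then at 19.7, 22.9 and 25.6 CPM (log2 change -1.16, SE 0.12, edgeR adjusted p = 6.16e-06). Both separated the groups, in opposite directions. Sgce and Peg10, neighbours on chromosome 6, rose by 0.72 and 0.43, and Snrpn, a splicing protein gene, fell by 0.35. Dcn, counted above with the fibroblast genes, is also on this list. The number that rose dropped to 6 without Trim28-hairpin replicate 2 and to 7 without Trim28-hairpin replicate 3 or double-hairpin replicate 1, and the number that fell to 5 without Trim28-hairpin replicate 3. The number that rose was 17 with only the 6 libraries compared.

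Only 18 of 54 germline genes were expressed enough to test. Of these, 5 (27.78%) rose and 2 (11.11%) fell, against 10% and 11.7% of all tested genes. Tex19.1 was described above. Stag3, a meiotic cohesin gene, rose from 2.41, 3.55 and 2.1 CPM to 5.18, 6.5 and 5.38 CPM (log2 change 1.08, SE 0.19, edgeR adjusted p = 0.000812). Zcwpw1, a meiotic histone reader, fell from 26.2, 32.2 and 29.3 CPM to 13.7, 13.7 and 14.1 CPM (log2 change -1.08, SE 0.17, edgeR adjusted p = 0.000352). Piwil2, a piRNA-binding protein gene, fell by 0.47 to 87.9 ± 17.3 CPM. Syce2, of the synaptonemal complex, and Cpeb1, a translational regulator, rose by 0.77 and 0.42. The number that rose was 3 without Trim28-hairpin replicate 1, 2 or 3 or double-hairpin replicate 1 or 2, or with a stricter low-count filter. Of 25 two-cell-stage genes 4 were tested, and 1 fell, Zfp750 (-0.76), a keratinocyte differentiation factor. With only the 6 libraries compared 2 two-cell-stage genes fell and 1 rose, and 2 fell with size factors or total counts in place of TMM. A germline or early embryonic gene below the filter had too few reads in these libraries for a test, which does not show that it was silent.

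Stress and metabolic lists had members that moved in both directions. Of 26 endoplasmic reticulum and amino acid stress genes, 12 rose and 3 fell (median 0.226). Trib3, a pseudokinase induced through Atf4, rose from 15.7, 16.9 and 17.4 CPM to 29.6, 25.9 and 32.8 CPM (log2 change 0.82, SE 0.10, edgeR adjusted p = 5.58e-05), and Ddit3, the factor CHOP, from 22.5 ± 0.432 to 35.3 ± 3.04 CPM. Mthfd2, a mitochondrial folate enzyme, and Atf4 itself rose by 0.56 and 0.33. Atf3, a stress factor of the same wider family, fell from 45.1 ± 2.17 to 27.3 ± 2.17 CPM (-0.72), and Ddit4, an inhibitor of mTORC1 signalling, fell by 0.45. Without Trim28-hairpin replicate 2 or double-hairpin replicate 3, 8 rose.

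Of 17 immediate early and AP-1 genes, 5 fell and 4 rose. Fos fell from 266, 236 and 231 CPM to 186, 162 and 132 CPM (log2 change -0.61, SE 0.12, edgeR adjusted p = 0.00235) and Fosb, its close relative, from 123 ± 14.4 to 63.1 ± 14.7 CPM, while Klf6 and Dusp6 rose by 0.46 and 0.42. Without Trim28-hairpin replicate 2, 2 rose, and with only the 6 libraries compared 7 did. In the p53 and senescence list 5 of 32 (15.62%) rose and 4 (12.5%) fell, near the 10% and 11.7% of all tested genes. Plk2, Gadd45a and Mdm2, p53 targets, rose by 0.51, 0.54 and 0.32, and Btg2, also a p53 target, fell by 0.49 from 453 ± 6.22 to 322 ± 5.38 CPM. The falls numbered 2 without Trim28-hairpin replicate 2 or 3 or double-hairpin replicate 1. With only the 6 libraries compared 14 rose and 5 fell, and without a low-count filter 9 rose. Of 42 proliferation genes, 3 (7.143%) rose and 2 (4.762%) fell, both below the 10% and 11.7% of all tested genes. None of the 5 (Gins2, Ccne1, E2f1, Mybl2 and Kif11) changed by more than a log2 value of 0.44. The number that rose was 1 without Trim28-hairpin replicate 1 or double-hairpin replicate 1. The number that fell ranged from 0, without Trim28-hairpin replicate 3 or double-hairpin replicate 1, to 4, without double-hairpin replicate 2. It was 10 with only the 6 libraries compared, 7 without a low-count filter, and 4 or 5 with DESeq2, size factors, total counts or a replicate block.

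Glycolysis genes showed 9 of 21 that rose and 2 that fell, counts that dropped to between 3 and 5 that rose without Trim28-hairpin replicate 1, 2 or 3 or double-hairpin replicate 2 or 3, and to 5 with scaling by total counts. Slc16a3, the lactate exporter, rose by 1.04 (17 ± 2.24 to 34.8 ± 9.54 CPM), and Slc2a3, a neuronal-type glucose transporter, fell by 0.99 (75 ± 2.05 to 37.8 ± 3.5 CPM, edgeR adjusted p = 9.78e-06). In cholesterol synthesis 5 of 24 (20.83%) fell and 2 (8.333%) rose, against 11.7% and 10% of all tested genes. With any 1 library left out, 1 to 4 fell. The falls numbered 13 with only the 6 libraries compared. The number that rose was 1 without any 1 library except double-hairpin replicate 3, and also with DESeq2 or without a low-count filter. Interferon response genes fell in 9 cases (18.75%) and rose in 3 (6.25%) of 48, against 11.7% and 10% of all tested genes. Irf7, the inducer of interferon genes, fell from 4.92 ± 0.548 to 2.48 ± 0.393 CPM (-0.99, edgeR adjusted p = 0.000713). Oas2 and Gbp7, interferon-induced effectors, fell by 0.91 and 0.70, while 0 rose without Trim28-hairpin replicate 2 and 1 rose without Trim28-hairpin replicate 1 or 3 or double-hairpin replicate 1 or 3. Without Trim28-hairpin replicate 3, 6 fell. The rises numbered 5 with only the 6 libraries compared.

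Markers of other cell types were read as a check on what else the cultures held. Trophoblast genes fell in 6 (30%) and rose in 3 (15%) of 20 cases, against 11.7% and 10% of all tested genes. Elf5, a trophoblast and glandular epithelium factor, stood at 7.81, 9.7 and 10.4 CPM and then at 1.94, 3.04 and 3.62 CPM (log2 change -1.70, SE 0.21, edgeR adjusted p = 7.38e-05), and Gata2 and Tead4 fell by 0.65 and 0.54. Prl2c2, a placental hormone gene with near copies, rose by 1.52. Eomes and Hand1, also fixed as trophoblast markers, had log2 changes of 0.52 and 0.66 that did not pass (edgeR adjusted p = 0.157 and 0.572). The trophoblast marker Cdx2 had 5 reads with the Trim28 hairpin and 7 with both, too few to test. Primitive endoderm genes rose in 5 and fell in 1 of 14 cases. The 5 were the matrix genes Sparc, Lamb1 and Lamc1 (0.44, 0.36 and 0.26) and the receptor gene Pdgfra (0.37), which fibroblasts express too, and Gata6, a lineage-defining factor (0.68, edgeR adjusted p = 0.0499). The gene that fell was Gata4, also a lineage-defining factor (-1.27). The marker Sox17 had 0 and 1 reads in the 2 groups. Without Trim28-hairpin replicate 3 or double-hairpin replicate 1 or 2, 3 rose, as with size factors or total counts in place of TMM.

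Endothelial genes fell in 5 of 10 cases and rose in 0. Tie1, an endothelial receptor gene, stood at 7.36, 6.56 and 7.53 CPM and then at 1.76, 2.49 and 2.57 CPM (log2 change -1.65, SE 0.17, edgeR adjusted p = 1.66e-05), and its relative Tek fell by 0.51. The number that fell was 3 without Trim28-hairpin replicate 2 or double-hairpin replicate 1. Kdr, the VEGF receptor gene, had a log2 change of 0.52 that did not pass (edgeR adjusted p = 0.0635), except without Trim28-hairpin replicate 3 (0.04747). The defining endothelial marker Cdh5 had 10 and 11 reads summed over the 3 libraries of each group, and the list summed to 134 to 140.5 CPM with the Trim28 hairpin and 93.2 to 105 CPM with both. Of 7 macrophage and blood genes, Laptm5 and Cd68 fell (-0.32 and -0.49), and neither kept its call without Trim28-hairpin replicate 2 or 3 or double-hairpin replicate 1. The defining markers Emr1 and Tyrobp had 0 reads with the Trim28 hairpin and 3 each with both, while Ptprc had 11 and 21 reads and Csf1r 47 and 61, and the list summed to 62.98 to 71.28 and 51.13 to 60.25 CPM. Of 5 skeletal muscle genes, Acta1 rose (0.63) and Mylpf fell (-1.22), with 0 reads of the defining factor Myod1 in either group. Neural genes rose in 2 (15.38%) and fell in 3 (23.08%) of 13 cases, against 10% and 11.7% of all tested genes. Ncam1 was higher (0.42) and Map2 lower (-0.44). Only 1 neural gene rose without Trim28-hairpin replicate 3 or double-hairpin replicate 3, while 5 fell without a low-count filter. The 4 adipocyte genes did not pass, with edgeR adjusted p from 0.08581 to 0.4795, and 1 rose with only the 6 libraries compared. Sex-linked genes fell in 2 of 8 cases (Kdm5c and Kdm6a, by 0.24 and 0.20), of which Kdm6a lost its call without any 1 library except double-hairpin replicate 2 (edgeR adjusted p from 0.08294 to 0.2188). The part of other cell types in the main lists was not tested.

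Signs of RNA quality were read beside these. The mitochondrial-encoded genes had 0 of 10 that passed and a median of 0.006. Of 82 cytosolic ribosomal protein genes, 3 rose (3.659%, below the 10% of all tested genes). They were led by Rps4l (0.91), a copy of another ribosomal gene. The ribosomal count was 1 without Trim28-hairpin replicate 1 or 2 or double-hairpin replicate 1 or 3, and 5 without double-hairpin replicate 2. It was 20 with only the 6 libraries compared and 6 without a low-count filter, and 75 of the 82 had a log2 change above 0, with a median of 0.073. Of 6 nuclear long noncoding RNAs, Malat1 fell from 2132, 1801 and 2059 CPM to 1533, 1558 and 1400 CPM (-0.42, edgeR adjusted p = 0.00489) and Neat1 by 0.39. Clustered protocadherins rose in 2 of 15 cases, Pcdha10 and Pcdhga12 (13.33%, near the 10% of all tested genes). The count was 0 without Trim28-hairpin replicate 3 or double-hairpin replicate 1. Shared exons leave single-gene counts of protocadherins uncertain.

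Position and promoter sequence were then described for the genes that changed at least 2-fold. Of 133 risers, 12 (9.023%) had another riser within 250 kb, against 5.558% of all tested genes that had one there. Of 239 genes that fell, 60 (25.1%) had another within 250 kb, against 11.28% of all tested genes. Ttc29 and Pou4f2, both described above, lie 38.7 kb apart on chromosome 8. Cldn6 and Cldn9, claudin genes that fell by 1.07 and 1.01, lie 0.138 kb apart on chromosome 17, and since no strand setting is known for the counting, reads may be shared between such close neighbours. Gsdmc2 and Gsdmc3 lie 12.5 kb apart on chromosome 15. Gene families that sit together and share sequence, such as the gasdermins, are among these neighbours, and their part in the shares was not tested. These neighbours were named after their values were seen. Genes other than protein-coding ones made up 12.8% of the risers, 5.02% of the fallers and 5.74% of all tested genes.

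RefSeq promoters (build GRCm38.p6, 250 bases before to 50 after the start) were matched for 87 of the 133 risers, 159 of the 239 fallers and 10585 of the 14520 tested genes. The median number of CpG dinucleotides in these 300 bases was 8 for risers, 8 for fallers and 20 for all, and 47.1%, 42.8% and 80.9% of promoters held at least 10. The 3 sets also differed in expression, with a median of 1.73, 2.11 and 27.8 CPM, and the part of expression level in the CpG difference was not tested. The sequences below show this range. The 250 bases before the start are printed 5′ to 3′ on the gene's strand with each CpG in capitals, for a riser with few (Akr1c21, chr13:4573825-4574074, + strand), risers with more (Zfp558, chr9:18473646-18473895, - strand, and Tex19.1, chr11:121145893-121146142, + strand) and the abundant faller Tgm3 (chr2:130012090-130012339, + strand).
Akr1c21: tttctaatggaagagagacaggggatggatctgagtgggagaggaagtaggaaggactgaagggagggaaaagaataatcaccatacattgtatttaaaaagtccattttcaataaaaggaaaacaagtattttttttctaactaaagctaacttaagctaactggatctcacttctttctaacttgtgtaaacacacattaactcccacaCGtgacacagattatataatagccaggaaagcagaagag
Zfp558: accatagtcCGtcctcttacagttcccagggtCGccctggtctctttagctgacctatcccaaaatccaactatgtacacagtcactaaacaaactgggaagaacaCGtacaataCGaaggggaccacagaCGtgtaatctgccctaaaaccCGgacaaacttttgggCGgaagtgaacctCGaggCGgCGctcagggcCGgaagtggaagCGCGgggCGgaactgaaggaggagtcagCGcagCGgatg
Tex19.1: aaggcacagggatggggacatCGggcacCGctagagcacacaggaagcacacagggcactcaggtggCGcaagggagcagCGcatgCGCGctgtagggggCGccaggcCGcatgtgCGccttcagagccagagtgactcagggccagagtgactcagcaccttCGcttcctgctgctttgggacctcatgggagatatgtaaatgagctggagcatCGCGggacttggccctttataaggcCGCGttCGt
Tgm3: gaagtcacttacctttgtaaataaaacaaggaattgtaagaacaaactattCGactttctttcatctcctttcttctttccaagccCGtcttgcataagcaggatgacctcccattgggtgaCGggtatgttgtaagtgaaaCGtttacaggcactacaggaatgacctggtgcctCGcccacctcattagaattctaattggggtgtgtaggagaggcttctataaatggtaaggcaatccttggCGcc
Akr1c21 has 1 CpG in the bases shown, Zfp558 has 16, Tex19.1 has 15 and Tgm3 has 6.

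Motifs were searched on both strands of the 300 bases, no motif contains another, and a match is a description of letters only. The octamer ATTTGCAT was in 3.45% of riser promoters (3 of 87), 5.03% of faller promoters (8 of 159) and 1.43% of all. The part of CpG number and expression level in the motif shares was not tested. The AP-1 motif TGANTCA was in 9.2%, 8.18% and 5.2%, and the TEAD motif CATTCC in 20.7%, 15.1% and 12.2%. The KLF motif CCACACCC was in 2.3% (2 promoters), 3.77% (6 promoters) and 3.9%. The E-box CACGTG was in 8.05%, 6.29% and 9.99%, and the E2F motif TCCCGC in 19.5%, 24.5% and 35.7%. The GRHL motif AACCGGTT was in 0% of risers and fallers and 0.265% of all. Shown next, with the motif in capitals, are Atf7ip (chr6:136518601-136518850, + strand), where the octamer occurs at 2 places, and Cldn4 (chr5:134946935-134947184, - strand), where the AP-1 motif occurs at 2 places. Neither gene changed 2-fold, so neither is among the risers and fallers counted here.
Atf7ip: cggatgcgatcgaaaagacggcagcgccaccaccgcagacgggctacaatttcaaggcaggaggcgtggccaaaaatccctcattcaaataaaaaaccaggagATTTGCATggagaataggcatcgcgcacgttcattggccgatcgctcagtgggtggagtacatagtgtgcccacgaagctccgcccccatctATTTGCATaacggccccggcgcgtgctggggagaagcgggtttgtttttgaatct
Cldn4: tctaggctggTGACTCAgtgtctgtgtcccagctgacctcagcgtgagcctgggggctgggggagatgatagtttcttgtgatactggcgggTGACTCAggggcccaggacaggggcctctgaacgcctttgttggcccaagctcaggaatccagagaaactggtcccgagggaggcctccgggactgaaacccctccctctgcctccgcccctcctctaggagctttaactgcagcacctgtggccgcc
Atf7ip rose and Cldn4 fell with the added hairpin, by log2 changes of 0.92 and -0.94.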

How the data were processed

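RNA of 12 libraries was sequenced, and the authors deposited raw read counts per Ensembl gene for 24207 genes, with gene names and positions. Per the submitters' processing notes TopHat2 2.0.12, Bowtie 1.1 and HTSeq (version not stated) were used, while the genome build, annotation and strand setting are not given in the sources used here. Genes passing edgeR's filterByExpr (minimum count 10, minimum total 15) were fitted over all 12 libraries with TMM scaling and edgeR 4.0.16's quasi-likelihood test in R 4.3.3, with Benjamini-Hochberg adjustment at 0.05 over the 14520 genes tested. CPM values are TMM-scaled, SE is the absolute log2 change divided by the root of F, and depths were 11906701 to 19191649 counts. DESeq2 1.42.0, limma 3.58.1, other scalings and filters, a replicate term and omission of each library were alternatives. The steps were tested on simulated data. Named genes were the targets and factors, the 12 largest rises and falls of at least 1 CPM without overlap, the 6 largest each of at least 50 CPM, and up to 4 plus 2 members per list by p, with predicted genes, clone names and pseudogenes left out of the first sets; some members of the lists are not reported here. The comparison and the 37 lists were chosen with earlier results of these data known. No column was left unmapped, and counts of genes with near copies are uncertain.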

Additional observations from a re-analysis of the deposited data

How the results depend on the processing

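Calls under the 14 alternatives that were also made by edgeR over 12 libraries all had the same direction. This was nearly fixed in advance, since the alternatives refit the same counts. Of the 3154 calls, 1813 were also made without Trim28-hairpin replicate 2, the fewest of any alternative. Of 177 named genes that passed the test, 39 lost the call under at least 1 alternative. With each library left out in turn, 772 to 1262 genes rose and 1028 to 1581 fell, 103 to 128 rose and 181 to 267 fell at least 2-fold, 30.26% to 40.47% of genes raised by induction fell and 17.83% to 25.77% of genes lowered by it rose. With a stricter low-count filter (minimum count 50), 62 rose and 129 fell at least 2-fold, with 12234 genes tested. With only the 6 libraries compared, 2376 rose and 2473 fell. DESeq2 called 1294 that rose and 1821 that fell, limma-voom 1439 and 1731. Scaling by total counts gave 1182 and 1976 and moved the median of all genes to -0.029. With the replicate number as a block, 1552 rose and 1847 fell. Same-numbered libraries had deviations correlated at 0.191, 0.032 and 0.0927, and libraries of unlike number at -0.148 to 0.0671. Replicates 1 and 3 of the Trim28 hairpin correlated best with their own number, and replicate 2 with replicate 3 of both hairpins. The main fit took no pairs, while the block fit above used the numbers. Depth limits the genes under the low-count filter, which were not tested.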

Other observations

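Further genes that fell with the added Setdb1 hairpin lie outside the lists described, and those given here were singled out after their values were seen. S100a14, a calcium-binding protein gene of epithelia, stood at 38.4, 42.8 and 44.7 CPM with the Trim28 hairpin and at 11.1, 16.2 and 19.3 CPM with both (log2 change -1.43, SE 0.17, n = 3 per group, edgeR adjusted p = 2.97e-05). Ceacam1, an adhesion molecule gene, stood at 54.9, 59.4 and 61 CPM and then at 26.8, 29.7 and 23.8 CPM (log2 change -1.12, SE 0.12). Both genes separated the groups. Muc4, a membrane mucin gene, F2rl1, a protease-activated receptor gene, and Crnn, the cornulin gene of squamous epithelium, fell by 1.66, 1.16 and 1.37. Genes known from neurons were among them too, with Arc at 59 ± 1.67 and then 21.4 ± 2.85 CPM (mean ± SD) and Nos1 at 41 ± 4.75 and then 15 ± 2.04 CPM. Trim40 and Rnf39, RING-finger genes that lie 52.8 kb apart on chromosome 17, fell by 1.65 and 1.17.

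Rises outside the lists, also singled out after their values were seen, included secreted and membrane proteins. Aqp5, a water channel of glands, stood at 13.9, 12.4 and 14.2 CPM with the Trim28 hairpin and at 43.1, 43.1 and 43.2 CPM with both (log2 change 1.68, SE 0.10, edgeR adjusted p = 2.73e-08). Fst, the activin antagonist follistatin, stood at 31.4, 23.6 and 24.1 CPM and then at 58.7, 49.3 and 52.9 CPM (log2 change 1.02, SE 0.11). Every double-hairpin library was above every Trim28-hairpin library for both. Edn1, the peptide endothelin, and Crispld2, a secreted CAP-domain protein gene, rose by 1.21 and 1.29. Errfi1, a feedback inhibitor of the EGF receptor, went from 158 ± 13.3 to 294 ± 19.7 CPM, and Usp14, a deubiquitinase of the proteasome, from 126 ± 3.77 to 229.6 ± 13.8 CPM. Xdh, xanthine dehydrogenase, rose by 1.42 from 4.06 ± 1.36 CPM.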
